A study of Mus musculus with 10 samples.

Results

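A set of 9 genes, *Shh*, *Gli1*, *Gli2*, *Ptch1*, *Lef1*, *Msx2*, *Hoxc13*, *Foxn1* and *Dlx3*, chosen by symbol as hair matrix regulators and Hedgehog pathway genes, were followed in back skin of mice that overexpress tristetraprolin (TTP). They are 9 of the 24454 rows of the gene count table, and all 9 were among the 15543 genes with enough counts to be tested. The matrix regulators *Lef1*, *Msx2*, *Hoxc13*, *Foxn1* and *Dlx3* were between 2.24-fold and 2.82-fold higher in *Zfp36*ΔARE than in WT skin, and each passed the test. *Shh* and the genes of its response, *Gli1*, *Gli2* and *Ptch1*, did not pass, with fold changes between 0.934 and 1.23.

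The hair matrix is the proliferating cell mass at the base of a growing hair follicle, wrapped around the dermal papilla, and its cells give rise to the hair shaft and the inner root sheath. Matrix cells secrete Sonic hedgehog, which binds the receptor Ptch1 and thereby frees Smoothened to activate the Gli transcription factors. *Gli1* and *Ptch1* are themselves induced by the pathway and are commonly read as its output. Lef1 is the nuclear partner of β-catenin in Wnt signaling, and Msx2, Hoxc13, Foxn1 and Dlx3 are transcription factors of matrix and hair shaft precursor cells.

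The data are RNA-Seq counts from full-thickness skin of C57BL/6 mice, 5 WT and 5 *Zfp36*ΔARE, each mouse giving 1 library, with littermates as controls. TTP, encoded by *Zfp36*, binds AU-rich elements and speeds the decay of the mRNAs that hold them. In the knockin, an instability element was deleted from the 3′-UTR of the endogenous *Zfp36* gene, so the change is present in every cell type and is not limited to skin. Both groups received the same treatment from 7 weeks of age, a single application of 400 nmol of the mutagen DMBA on shaved back skin followed by applications of 10 nmol of the phorbol ester TPA over 20 weeks. The biopsies came from treated skin without tumor, and the hair cycle stage at biopsy is not given in the sources used here.

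*Zfp36*, the targeted gene, averaged 2152 ± 277 normalized counts over the WT group and 5427 ± 766 over the *Zfp36*ΔARE group (SD, n = 5 each), where a normalized count is a read count scaled for the size of its library. Library totals ran from 19595024 to 36419553 counts. The basal keratinocyte genes *Krt5* and *Krt14* had at least 51860 normalized counts in every library. A hair shaft score, the mean log2(CPM + 1) of 13 hair keratin and shaft genes, was 8.77 to 9.93 in *Zfp36*ΔARE libraries and 7.62 to 8.02 in WT replicates 2, 4 and 5. It was 5.39 in WT replicate 1 and 2.70 in WT replicate 3, which therefore stand apart from the others. Counts from Y-linked genes were found in *Zfp36*ΔARE replicates 2 to 5 (3349 to 4262 counts) and in none of the other 6 libraries above 1 count. Such counts are marks of sex, which the labels do not give. In the comparison of the 5 WT with the 5 *Zfp36*ΔARE libraries, sex and genotype therefore cannot be fully told apart. Only *Zfp36*ΔARE replicate 1 has the marks of the WT libraries, so its values are given below beside those of the WT group.

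Across all tested genes, 34.3% passed an adjusted p of 0.05 (Benjamini-Hochberg, over all genes) in edgeR's quasi-likelihood test, 15.3% as higher and 19.1% as lower in *Zfp36*ΔARE skin. Of the 9 genes, 5 passed, all as higher. With a fold change above 2 required as well, the same 5 genes passed, against 1.67% of all tested genes as higher. In these 5 genes each *Zfp36*ΔARE library lay above each WT library, which was so for 11.2% of all tested genes. The median log2 fold change was 1.16 over the 9 genes and 0.01 over all genes tested. A bulk library does not show whether a gene differed through the number of cells that express it or through its level per cell.

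The signaling genes come first. *Shh* (Entrez 20423), the ligand, lies on chromosome 5 at 28456815 to 28467256, minus strand (GRCm38, GENCODE vM21). It had 334.3, 153.5, 146.4, 225.2 and 309.5 normalized counts in WT replicates 1 to 5 and 230, 339.5, 320.7, 247 and 302 in *Zfp36*ΔARE replicates 1 to 5. The groups overlapped throughout, and the second highest of the 10 values came from WT replicate 1, a library with little hair shaft RNA. The means were 233.8 ± 86.6 and 287.8 ± 47.3 (SD, n = 5 each), which is a difference of 0.30 on the log2 scale (SE 0.24, 95% interval -0.23 to 0.83, adjusted p = 0.345 from edgeR). *Shh* was the least covered of the 9 genes, with 120 to 375 raw counts per library.

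*Ptch1* (Entrez 19206; chromosome 13, 63508328 to 63573598, minus strand) encodes the Shh receptor. Its normalized counts were 2394, 1674, 1742, 1890 and 2227 in the WT and 2171, 2651, 2242, 1794 and 2213 in the *Zfp36*ΔARE replicates. The groups overlapped, and *Zfp36*ΔARE replicate 2 and WT replicate 1 held the highest values, as they did for *Shh*. The log2 fold change was 0.16 (SE 0.12, 95% interval -0.11 to 0.43, adjusted p = 0.327 from edgeR).

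*Gli1* (Entrez 14632; chromosome 10, 127329882 to 127341974, minus strand) is a transcription factor that amplifies the response. The WT replicates had 3003, 1838, 1766, 2224 and 2411 normalized counts and the *Zfp36*ΔARE replicates 2142, 2666, 1920, 1818 and 2240. WT replicate 1 was the highest of the 10 libraries and WT replicate 3 the lowest, so the WT group spanned the whole *Zfp36*ΔARE range. edgeR gave a log2 fold change of -0.06 (SE 0.15, 95% interval -0.40 to 0.28, adjusted p = 0.779), and 0.07 without WT replicate 1.

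*Gli2* (Entrez 14633; chromosome 1, 118834132 to 119053619, minus strand) is the main activator of Hedgehog target genes. It had 1174, 1301, 799.2, 1338 and 1065 normalized counts in WT mice and 1234, 1106, 958.7, 1106 and 896.7 in *Zfp36*ΔARE replicates 1 to 5. The groups overlapped, and WT replicates 4 and 2 were the highest. The difference was -0.10 on the log2 scale (SE 0.14, 95% interval -0.41 to 0.21, adjusted p = 0.596 from edgeR). The 95% intervals of all 4 signaling genes ended below a log2 fold change of 1, that is, below a fold of 2. The estimates of the matrix regulators lay above 1, but their 95% intervals also reached below it. The lower limits ran from 0.43 for *Lef1* to 0.65 for *Msx2*, under the upper limit of 0.83 for *Shh*.

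**Figure D1:**
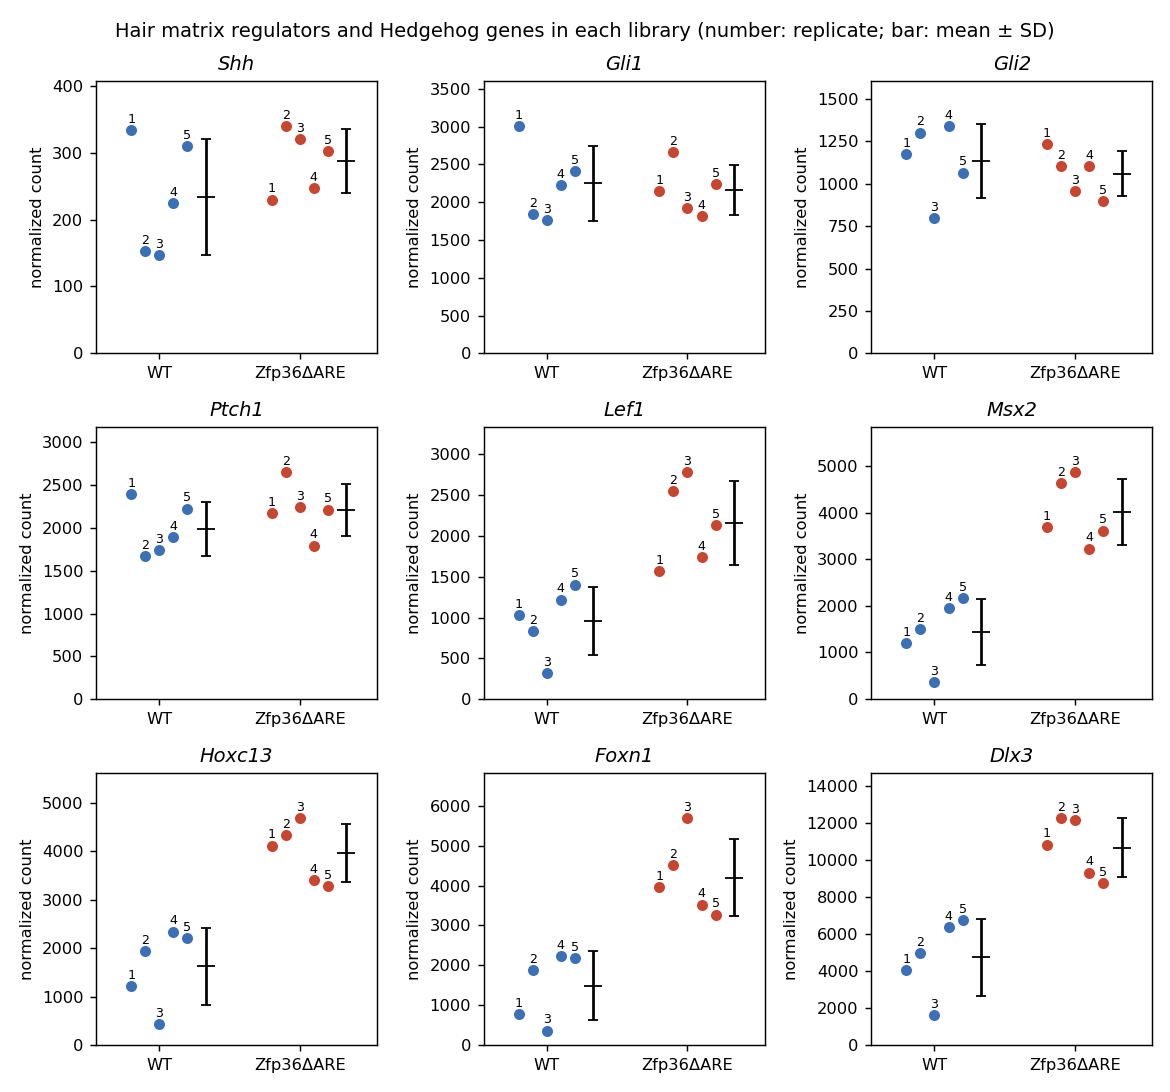
Normalized counts (vertical axes, from 0) of the 9 genes in the 5 WT (blue) and 5 *Zfp36*ΔARE (red) libraries, with the replicate number at each point and a bar for the group mean ± SD. The groups overlap for *Shh*, *Gli1*, *Gli2* and *Ptch1*, and every *Zfp36*ΔARE point lies above every WT point for *Lef1*, *Msx2*, *Hoxc13*, *Foxn1* and *Dlx3*.

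Among the matrix regulators, *Lef1* (Entrez 16842) lies on chromosome 3 at 131110471 to 131224356, plus strand. It had 1029, 832, 320.9, 1221 and 1404 normalized counts in the WT and 1570, 2549, 2782, 1741 and 2135 in the *Zfp36*ΔARE replicates. The groups did not overlap, and the lowest *Zfp36*ΔARE value, in replicate 1, stood close above the highest WT value, in replicate 5. The means were 961.4 ± 417 and 2155 ± 515 (SD, n = 5 each), a 2.24-fold difference (log2 1.16, SE 0.33, adjusted p = 0.0236 from edgeR).

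*Msx2* (Entrez 17702; chromosome 13, 53466884 to 53473074, minus strand) encodes a homeodomain repressor needed to maintain the hair shaft. WT replicates 1 to 5 had 1195, 1502, 361.2, 1950 and 2164 normalized counts and *Zfp36*ΔARE replicates 1 to 5 had 3683, 4632, 4866, 3227 and 3612. The gap between the groups, from 2164 to 3227, was wider than for *Lef1*. The fold change was 2.79 (log2 1.48, SE 0.38, adjusted p = 0.0164 from edgeR), and *Msx2* was the only one of the 5 genes to pass with each of the 10 libraries left out in turn.

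*Hoxc13* (Entrez 15422; chromosome 15, 102921103 to 102928814, plus strand) encodes a homeodomain activator of hair keratin genes. Its normalized counts were 1212, 1940, 428.3, 2342 and 2204 in WT and 4119, 4334, 4688, 3413 and 3277 in *Zfp36*ΔARE replicates. The WT group again ran from replicate 3 at the bottom to replicates 4 and 5 at the top, below each *Zfp36*ΔARE library. Expression was 2.44-fold higher in *Zfp36*ΔARE skin (log2 1.29, SE 0.37, adjusted p = 0.0243 from edgeR).

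*Foxn1* (Entrez 15218; chromosome 11, 78357577 to 78386558, minus strand) is the gene mutated in nude mice, and its product drives differentiation of matrix descendants. It had 775.5, 1883, 357.5, 2235 and 2180 normalized counts in WT mice and 3954, 4517, 5694, 3521 and 3268 in *Zfp36*ΔARE replicates 1 to 5. This was the widest spread of the 9 genes within WT relative to the mean, 1486 ± 863 against 4191 ± 965 in *Zfp36*ΔARE skin (SD, n = 5 each). *Foxn1* had the largest fold change of the 9 genes, 2.82 (log2 1.49, SE 0.44, adjusted p = 0.0269 from edgeR).

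*Dlx3* (Entrez 13393; chromosome 11, 95120119 to 95125296, plus strand) encodes a homeodomain factor of matrix, shaft and upper epidermis. The WT replicates had 4029, 4940, 1589, 6363 and 6730 normalized counts and the *Zfp36*ΔARE replicates 10810, 12250, 12150, 9302 and 8743. The groups did not overlap, with WT replicate 3 far below the rest. The difference was 2.25-fold (log2 1.17, SE 0.32, adjusted p = 0.0204 from edgeR).

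*Zfp36*ΔARE replicate 1, which like the WT libraries had no Y-linked counts above 1, lay above all 5 WT libraries for each of the 5 matrix regulators. Set alone against the 5 WT libraries, its log2 differences were 0.71 for *Lef1*, 1.36 for *Msx2*, 1.34 for *Hoxc13*, 1.41 for *Foxn1* and 1.19 for *Dlx3*. In that comparison of 1 library against 5, edgeR called 0 of the 9 genes (0 at an unadjusted p below 0.05) and 0 (0%) of all 16373 genes, of which 2572 had an unadjusted p below 0.05. The lone library is assumed there to vary like the WT libraries. A fit added after the data were seen used all 10 libraries and a term for Y-linked counts beside genotype. Neither the WT libraries nor *Zfp36*ΔARE replicate 1 carry that mark, so its genotype term again sets that replicate against WT. These 5 differences were therefore the same by design of the fit. In it edgeR again called 0 of the 9 genes (1 at an unadjusted p below 0.05; adjusted p = 0.434, 0.232, 0.232, 0.264 and 0.225). It called 0 (0%) of all 15543 genes in that fit, *Zfp36* included (log2 1.43, adjusted p = 0.184), and 3382 had an unadjusted p below 0.05.

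Promoter sequence from RefSeq (GRCm38.p6), 250 bases before to 50 after a start site, was at hand for *Gli2*, *Ptch1*, *Lef1*, *Msx2* and *Foxn1*, with 4 windows for *Lef1* and 1 for each other gene. The letters TAATTA, a core that many homeodomain proteins bind and that reads the same on both strands, occur in the windows of *Msx2* and *Foxn1* and in 5.29% of all 32851 windows. Because products of the gene set (Msx2, Hoxc13 and Dlx3) are homeodomain proteins, the stretch in *Foxn1* is shown on the strand of the gene with the match in capitals. The letters were chosen after the windows had been read.
*Foxn1*, chr11:78386622-78386647: gctgatatcaTAATTAttggctcacc
The match began 29 bases before the RefSeq start in *Foxn1*. In *Msx2* it began 187 bases before the RefSeq start, which lies inside the GENCODE gene given above, so that the match falls within the gene of that annotation. Neither GACCACCCA, a consensus for Gli factors held by 0.253% of windows, nor CTTTGAT, one for Lef1 and its relatives held by 3.73%, was found on either strand in the windows of the 5 genes. The GC-box letters GGGCGG were found for all 5 genes, and in 35.7% of all windows. A match in letters does not show that a factor binds there.

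The order of the libraries was nearly the same for the matrix regulators. From high to low, *Foxn1* and *Hoxc13* had the order *Zfp36*ΔARE replicates 3, 2, 1, 4 and 5, then WT replicates 4, 5, 2, 1 and 3, and the hair shaft score had this same order in all 10 libraries. *Msx2*, *Dlx3* and *Lef1* differed from it by exchanges within a group. *Shh* followed another order, in which WT replicate 1 was the second highest, while that library was the second lowest for *Msx2*, *Hoxc13*, *Foxn1* and *Dlx3*. WT replicate 3 was lowest of all 10 for each of the 9 genes except *Ptch1*, for which WT replicate 2 was lowest.

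Likeness of pattern was measured as the mean absolute difference of standardized log2 CPM over the 10 libraries, where 0 is an identical pattern. Among the 9 genes, the closest pair was *Msx2* and *Dlx3* (0.0603), and *Hoxc13* lay at 0.0706 from *Dlx3* and 0.0939 from *Foxn1*. *Shh* was closest to *Ptch1* (0.379), then to *Lef1* (0.505) and *Gli1* (0.593), and the farthest pair was *Gli2* and *Ptch1* (1.20). Of all tested genes outside the set, those nearest to *Foxn1* were *Gja3* (0.0556), a lens connexin by its best known role, *Rnf182* (0.0678) and *Psors1c2* (0.0752). Those nearest to *Shh* were *Chtf18* (0.169) and *Prim1* (0.221), both of DNA replication, and the Wnt inhibitor *Wif1* (0.245). All values rest on the same 10 libraries, in which the genotypes also differ.

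**Figure D2:**
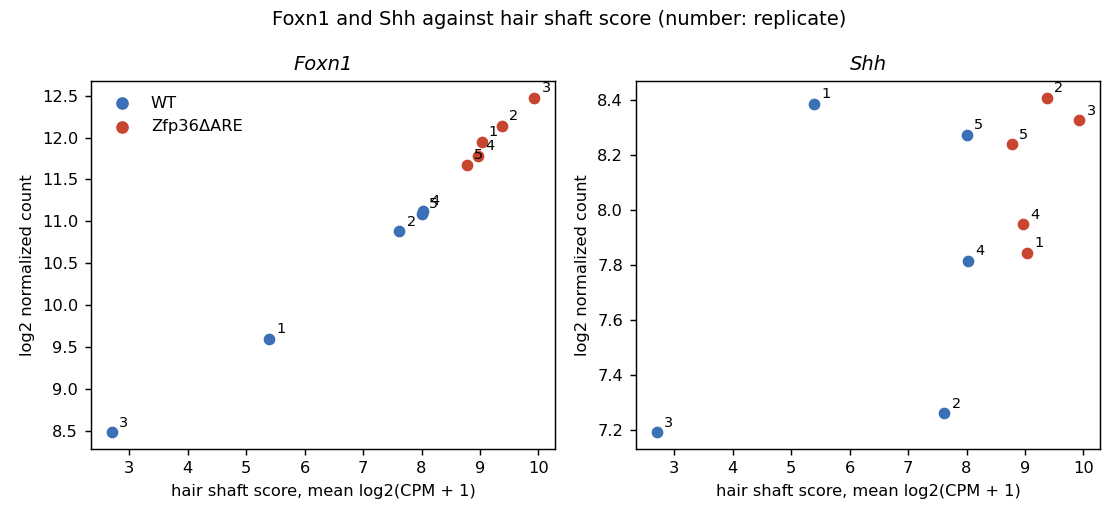
log2 normalized counts of *Foxn1* (left) and *Shh* (right) against the hair shaft score (mean log2(CPM + 1) of 13 shaft genes) in each library, WT blue and *Zfp36*ΔARE red, with replicate numbers. *Foxn1* rises with the score in every step, while *Shh* in WT replicate 1 (score 5.39) is as high as in the *Zfp36*ΔARE libraries.

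The level of the matrix regulators was also set against that of the Hedgehog genes within each library. Per kilobase of gene length, *Msx2* was 3.04 to 12.1 times as abundant as *Shh* in WT and 14.8 to 19.7 times in *Zfp36*ΔARE libraries. *Foxn1* stood at 0.227 to 1.15 times *Gli1* in WT and at 1.64 to 3.33 times in *Zfp36*ΔARE libraries. In 16 of the 20 pairs of a matrix regulator with a Hedgehog gene, the ratio was higher in each *Zfp36*ΔARE library than in each WT library, and in 0 pairs lower in each. The groups overlapped for *Lef1* with *Gli2* and for *Hoxc13*, *Foxn1* and *Dlx3* with *Shh*. These ratios were not tested, and pairs that share a gene are not independent. The matrix regulators taken alone were already higher without overlap, so the count is not a separate result. Its share over all gene pairs was not computed.

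Levels per kilobase of gene length and unit of depth (FPKM) allow the genes to be ranked. In WT skin *Dlx3* was highest, with 68.1 ± 29.7, followed by *Hoxc13* (25.0 ± 12.3), *Msx2* (24.9 ± 12.3), *Gli1* (23.0 ± 5.11), *Ptch1* (17.3 ± 2.72) and *Foxn1* (17.1 ± 9.91; SD, n = 5 each). From *Hoxc13* to *Foxn1* neighbors in this order did not differ beyond their spread. *Lef1* had 9.77 ± 4.24, *Gli2* 6.34 ± 1.21 and *Shh*, the lowest, 3.29 ± 1.22 FPKM. In *Zfp36*ΔARE skin *Dlx3* had 153 ± 23.1, *Msx2* 69.4 ± 12.3, *Hoxc13* 61.1 ± 9.31 and *Foxn1* 48.1 ± 11.1 FPKM. These 4 then stood above *Gli1* (22.1 ± 3.38), *Lef1* (21.9 ± 5.24) and *Ptch1* (19.3 ± 2.65), which did not differ among themselves beyond their spread, while *Gli2* (5.92 ± 0.747) and *Shh* (4.04 ± 0.665) remained lowest.

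The calls on the matrix regulators rest on several libraries. Without WT replicates 1 and 3, which have the lowest hair shaft scores, edgeR called 15.9% of all genes. All 5 matrix regulators still passed, with log2 fold changes of 0.90 for *Lef1* (adjusted p = 0.0374), 1.09 for *Msx2* (0.00795), 0.87 for *Hoxc13* (0.00636), 1.0 for *Foxn1* (0.0119) and 0.82 for *Dlx3* (0.0111). Only *Msx2* then kept a fold above 2, at 2.14. Leaving out WT replicate 3 alone (26.7% of all genes called) left 5 calls and 3 with a fold above 2, since *Lef1* (1.92-fold) and *Dlx3* (1.93-fold) fell under it.

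Leaving out any of 3 other libraries left 2 of the 5 calls. Without WT replicate 1 (22.1% of all genes called) the adjusted p rose to 0.0606 for *Hoxc13*, 0.0597 for *Foxn1* and 0.0505 for *Dlx3*. Without *Zfp36*ΔARE replicate 2 (21.3% called) it was 0.0553 for *Lef1*, 0.0536 for *Hoxc13* and 0.0558 for *Foxn1*, and without *Zfp36*ΔARE replicate 3 (22.4% called) it was 0.0560, 0.0534 and 0.0624 for these 3 genes. The log2 fold changes of the 5 genes stayed between 0.94 and 1.69 with any 1 library left out.

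With the hair shaft score as a covariate beside genotype, the log2 differences between genotypes were 0.34 for *Lef1*, 0.44 for *Msx2*, 0.25 for *Hoxc13*, 0.31 for *Foxn1* and 0.29 for *Dlx3*. edgeR then called 0 of the 9 and 32 genes (0.206%) in all. At an unadjusted p below 0.05 there were 4 of the 9 and 2252 of all 15543 genes. For the matrix regulators the SE was smaller than without the score, 0.09 in place of 0.44 for *Foxn1* and 0.17 in place of 0.38 for *Msx2*. Their fold was smaller too, 1.24 in place of 2.82 for *Foxn1*. For *Shh*, *Gli1*, *Gli2* and *Ptch1* the SE was larger, 0.34 in place of 0.24 for *Shh*. *Shh* (0.06), *Gli1* (-0.12), *Gli2* (-0.37) and *Ptch1* (0.11) did not pass in this fit either. The score itself was at most 8.02 in WT and at least 8.77 in *Zfp36*ΔARE libraries. Hair content and genotype therefore cannot be told apart by this fit.

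**Figure D3:**
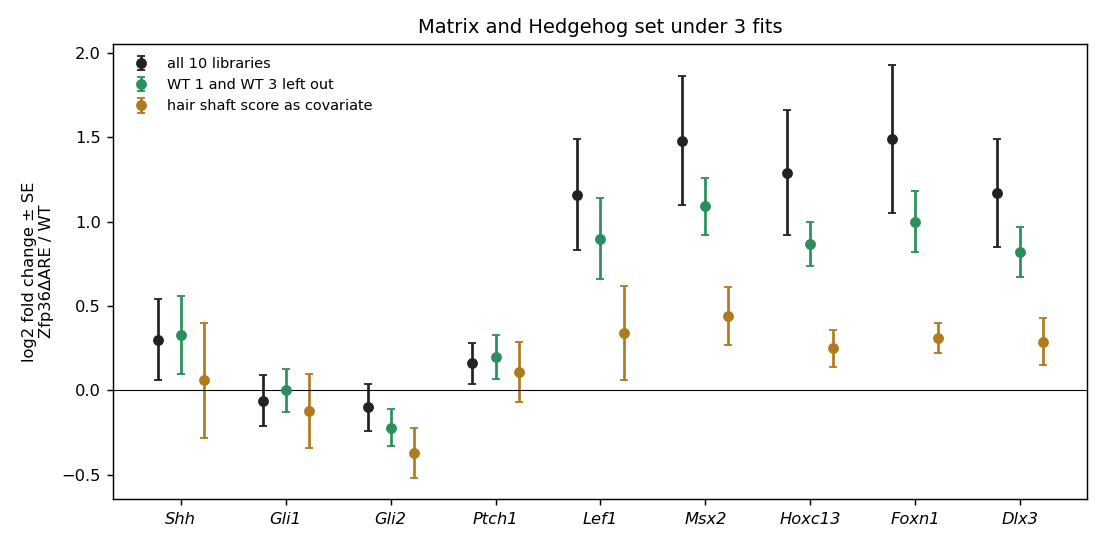
log2 fold change of *Zfp36*ΔARE over WT ± SE (vertical axis) for the 9 genes with all 10 libraries (black), without WT replicates 1 and 3 (green) and with the hair shaft score as a covariate (ochre). *Msx2* goes from 1.48 to 1.09 and 0.44, while *Gli1* stays between -0.12 and 0.00.

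The markers of follicle cells moved in part with these genes. The 13 hair shaft markers had a median log2 fold change of 2.25. All 13 were higher in each *Zfp36*ΔARE than in each WT library, against 11.2% of all tested genes. In edgeR 3 passed as higher, *Krt32*, *Krt35* and *Krt36*, against 15.3% of all tested genes. At an unadjusted p below 0.05 there were 12, against 7323 of all 15543 tested genes in either direction. DESeq2 called 12 of the 13 (41.4% of all tested genes) and limma-voom 4 (34.5%). Without WT replicate 3 (26.7% of all genes called) edgeR called 10, and without WT replicates 1 and 3 (15.9%) it called 13. Their summed normalized counts were 3026 to 118700 in WT and 180100 to 492300 in *Zfp36*ΔARE libraries. Of the 7 inner root sheath markers, edgeR called 0, with 6 at an unadjusted p below 0.05. DESeq2 called 4 of them and limma-voom 0, and edgeR called 5 without WT replicates 1 and 3. Their sums were 37630 to 680200 in WT and 709300 to 1251000 in *Zfp36*ΔARE libraries. Of 10 proliferation markers 1 passed, *Ccna2* (log2 0.40, adjusted p = 0.0460 from edgeR), and the sums overlapped (13540 to 22630 and 20410 to 27900).

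Of 8 basal keratinocyte markers, *Itga6*, *Itgb4* and *Dst* fell, by 0.29, 0.35 and 0.40 on the log2 scale, and 5 did not pass, where 19.1% of all tested genes were lower. The summed counts of the 8 were 228400 to 346600 in WT and 193500 to 365100 in *Zfp36*ΔARE libraries. Markers of some cell types outside the epithelium were lower, while those of melanocytes and the dermal papilla, given below, were not lower as a set. As lower, edgeR called 8 of 8 macrophage markers (sums 15960 to 33380 in WT, 7860 to 12430 in *Zfp36*ΔARE) and 8 of 8 of skeletal muscle (216500 to 1145000, 104200 to 296600). The groups overlapped for all 8 muscle markers. Also called were 6 of 6 of endothelium (4955 to 10770, 2865 to 3860) and 5 of 7 of adipocytes (45780 to 93010, 31620 to 41930). Fibroblast markers fell in 4 of 7 (165200 to 349900, 93590 to 265100) and Schwann cell markers in 2 of 5 (2915 to 4488, 2129 to 2602). Without WT replicates 1 and 3 (15.9% of all genes called) edgeR called 2 of 8 muscle, 2 of 7 fibroblast and 2 of 5 Schwann cell markers. It then called 8 of 8 macrophage, 5 of 6 endothelial and 5 of 7 adipocyte markers. None of these markers was at 0 in every library. The part of these cell markers in the differences of the matrix regulators was not tested.

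The other Hedgehog pathway genes numbered 21, taken by their role. Of 20 that could be tested, 3 rose, 3 fell and 14 did not pass, a share close to that of all tested genes (15.3% higher, 19.1% lower), with a median log2 fold change of 0.15, and 0 passed with a fold above 2, against 8.31% of all tested genes. Among ligands, *Dhh*, expressed by Schwann cells and vessels, fell by 0.85 on the log2 scale (SE 0.19, adjusted p = 0.0106 from edgeR), from 54.3 ± 4.47 to 30.3 ± 7.81 normalized counts (SD, n = 5 each), without overlap. *Ihh* was too low to test, with 69 raw counts in all 10 libraries. Of the genes that modify and release the ligand, *Disp1* fell by 0.43 and *Scube2* rose by 0.50 (adjusted p = 0.0265 and 0.0147 from edgeR). *Hhat* (0.14), *Disp2* (-1.02, adjusted p = 0.0758), *Scube1* (0.24) and *Scube3* (0.17) did not pass.

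At the cell surface, *Cdon*, a coreceptor, fell by 0.95 on the log2 scale (SE 0.16, adjusted p = 0.00551 from edgeR). Its normalized counts were 1004 to 1936 in WT against 641.9 to 795.1 in *Zfp36*ΔARE libraries, and it passed whichever library was left out. The signal transducer *Smo* had a log2 fold change of 0.14 (95% interval 0.00 to 0.29, adjusted p = 0.114), and the coreceptors *Boc* (0.07) and *Gas1* (-0.24) and the decoy receptor *Hhip* (0.19) did not pass.

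Inside the cell, *Sufu*, which restrains Gli proteins, rose by 0.26 (adjusted p = 0.0141 from edgeR) and the kinase gene *Stk36* by 0.65 (adjusted p = 0.0172), both without overlap. *Gli3*, the main repressor form of the family, had 595.5 to 1345 normalized counts in the WT and 1065 to 1973 in the *Zfp36*ΔARE group, a log2 fold change of 0.62 that missed the threshold (adjusted p = 0.0536 from edgeR, 0.0218 with DESeq2). *Kif7* (0.19), *Gpr161* (-0.04), *Evc* (-0.13), *Evc2* (0.24) and *Spop* (0.16) did not pass in edgeR.

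These calls changed with the libraries used. Without WT replicates 1 and 3, 2 of the 6 called genes remained, *Cdon* (-0.66, adjusted p = 0.00504 from edgeR) and *Dhh* (-0.87, adjusted p = 0.0311). *Disp1* lost its call without WT replicate 1 or 3 and without *Zfp36*ΔARE replicate 4 or 5.

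A further list held 7 genes reported as Hedgehog targets, 1 of them (*Hhip*) also counted above, of which 2 rose and 5 did not pass, against 15.3% of all tested genes as higher. *Mycn*, which drives proliferation, had 286.8 to 649 normalized counts in the WT and 738.3 to 1162 in the *Zfp36*ΔARE group, a log2 fold change of 1.04 (SE 0.22, adjusted p = 0.00964 from edgeR). *Ccnd2*, a cyclin of the G1 phase, rose by 0.49 (SE 0.13, adjusted p = 0.0164) without overlap. *Ccnd1* (0.33), *Bcl2* (-0.28), *Foxe1* (0.83, adjusted p = 0.0815) and *Sfrp1* (0.27) did not pass in edgeR.

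**Figure D4:**
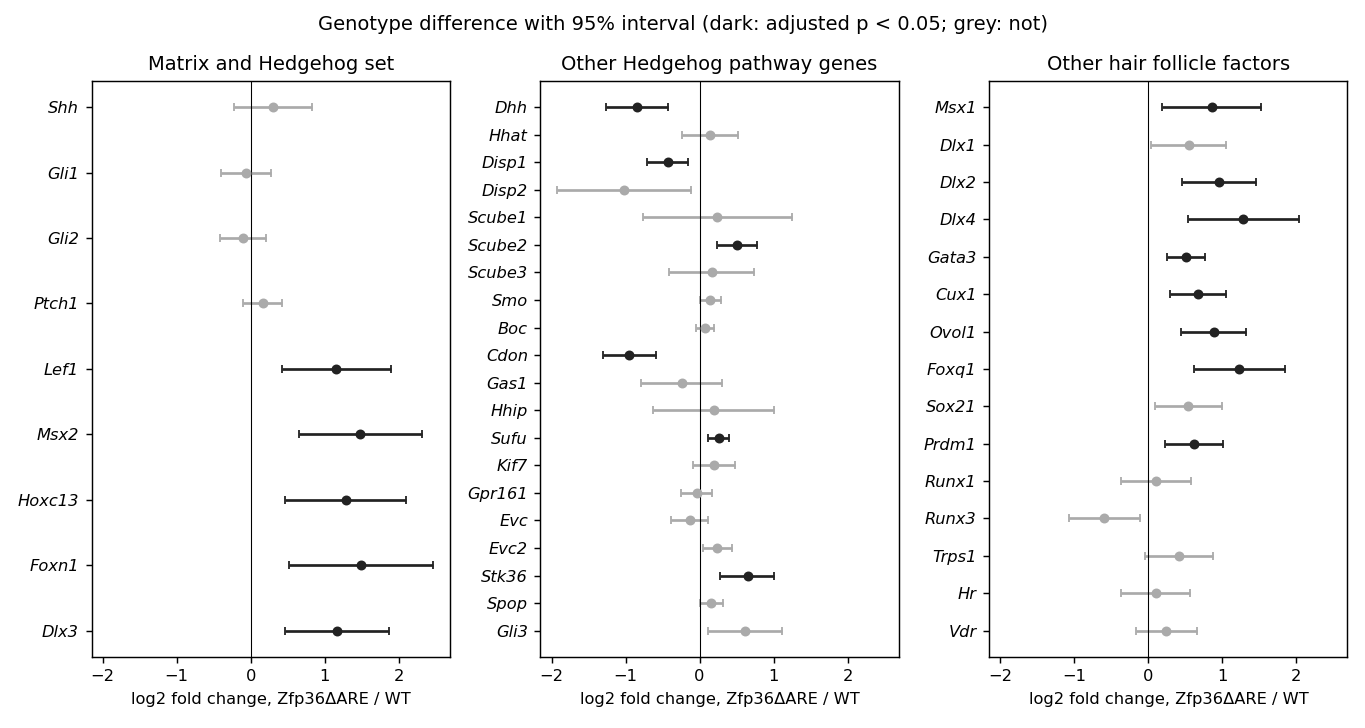
log2 fold change of *Zfp36*ΔARE over WT with its 95% interval (horizontal axes) for the 9 genes, 20 other Hedgehog pathway genes and 15 other hair follicle factors, dark where the adjusted p is below 0.05. The other Hedgehog genes lie on both sides of 0 (3 rose, 3 fell), and 14 of the 15 follicle factors lie above it, 8 of them dark.

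Among 16 other transcription factors known from the hair follicle, 15 could be tested, and 8 rose and 0 fell, where 15.3% of all tested genes were higher and 19.1% lower. Their median log2 fold change was 0.55. In edgeR 11 of the 15, among them *Runx3* as lower, had an unadjusted p below 0.05, against 7323 of all 15543 tested genes. The limma-voom fit also called 8 as higher and 0 as lower, while DESeq2 called 9 as higher and 1 as lower. Of all tested genes, DESeq2 called 41.4% and limma-voom 34.5% in either direction. The largest was *Dlx4* (log2 1.28, SE 0.34, adjusted p = 0.0181 from edgeR), with 43.9 to 221.8 normalized counts in WT mice and 293.7 to 476.6 in *Zfp36*ΔARE libraries. *Foxq1*, mutated in satin mice, rose by 1.23 (SE 0.28, adjusted p = 0.0118), although its groups overlapped (379.4 to 927.8 and 861.1 to 2044). *Dlx2* rose by 0.96, *Ovol1* by 0.88, *Cux1* by 0.67, *Prdm1* by 0.61 and *Gata3*, a factor of the inner root sheath, by 0.51 on the log2 scale, each without overlap. *Msx1*, a relative of *Msx2*, rose by 0.86 with an adjusted p of 0.0491, and lost its call in 8 of the 10 fits with 1 library left out. *Prdm1* lost it without WT replicate 3 (adjusted p = 0.0514) and without *Zfp36*ΔARE replicate 3 (0.0618).

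The 7 that did not pass included *Runx3*, the only 1 of the 15 with a negative value (log2 -0.60, unadjusted p = 0.02 and adjusted p = 0.0559 from edgeR), and *Hr* (0.10) and *Vdr* (0.24), both needed to restart the hair cycle. *Dlx1* (0.55), *Sox21* (0.54), *Trps1* (0.41) and *Runx1* (0.10) also did not pass, and *Hoxc12* was too low to be tested. Without WT replicates 1 and 3, 7 genes passed, where 15.9% of all genes were called. With the hair shaft score as a covariate edgeR called 0. In that fit 3 had an unadjusted p below 0.05, against 2252 of all 15543 genes.

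Among 6 partners and Wnt targets beside *Lef1*, 3 rose and 3 did not pass, against 15.3% of all tested genes as higher. *Tcf7*, of the same factor family, had 419.8 to 785.2 normalized counts in the WT and 1216 to 2219 in the *Zfp36*ΔARE group, a log2 fold change of 1.34 (SE 0.21, adjusted p = 0.00516 from edgeR). The Wnt targets and inhibitors *Axin2* (0.57, adjusted p = 0.00807) and *Nkd1* (1.0, adjusted p = 0.0152) rose as well, *Nkd1* with overlapping groups. *Tcf7l1* (-0.19), *Tcf7l2* (-0.16) and the ligand gene *Wnt10b* (0.40) did not pass in edgeR. *Tcf7* and *Axin2* passed with each library left out in turn and without WT replicates 1 and 3, while *Nkd1* did not pass without those 2 (adjusted p = 0.0938).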

How the data were processed

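Per the labels and the methods, reads of low mean quality were removed, the rest were aligned to mm10 with STAR 2.5.2b, and fragments per gene were counted with featureCounts of Subread 1.5.0-p1. The authors deposited raw counts without normalization, 24454 rows in 10 libraries, of which 2 rows had no gene name (7.38e-05% of counts) and were removed. Strand and multiple matches are not given in the sources used here, so overlapping genes and close paralogs are uncertain.

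edgeR 4.0.16 in R 4.3.3 computed TMM factors, filtered with filterByExpr and fitted a robust quasi-likelihood model with genotype as the only term. P values were adjusted by the Benjamini-Hochberg method over all 15543 tested genes, with a threshold of 0.05. Normalized counts are counts divided by the TMM effective library size and multiplied by the mean of these sizes. Scores used a pseudocount of 1 CPM. The script was tested on simulated data, and replicates were checked for identical libraries, of which there were none. The labels do not say that equal replicate numbers mark pairs, and deviations of equally numbered libraries correlated at -0.19 to 0.09, so no pairing was used.

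The 9 genes and all lists were chosen with earlier results of these data known. Text names the 9 genes, all other Hedgehog pathway genes listed, genes of the target, matrix and Lef1 lists that passed (others of these lists were named after their values were seen), *Zfp36*, markers behind list levels, the 3 genes nearest to *Shh* and *Foxn1*, and marks of sex. Alternatives were DESeq2 1.42.0, limma-voom (limma 3.58.1), scaling by size factors of DESeq2 or by upper quartiles, tests without a filter or on genes with 10 counts in each library, a replicate block, the hair shaft covariate, fewer libraries, a term for Y-linked counts over 10 (added after the data were seen), and each library left out. A listed gene is not reported here, and the list counts leave it out. Gene positions are from GENCODE vM21 and promoters from RefSeq.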

Additional observations from a re-analysis of the deposited data

Results flagged for a closer look

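*Nkd1*, a Wnt target and inhibitor, had 592 normalized counts in WT replicate 5 and 292 to 378 in the other 4 WT libraries. The gap of this library to its nearest neighbor was 0.714 of the range of the group, above the 0.71 at which Dixon's test calls 1 of 5 values an outlier. Over the 86 groups of 5 examined this was the only such value, where chance alone gives about 1 in 20, or 4.3.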

How the results depend on the processing

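The 5 calls among the 9 genes were also made with DESeq2, limma-voom, size factors of DESeq2, upper-quartile scaling, either other filter, and without WT replicates 1 and 3. The replicate block treats equal replicate numbers as pairs, which the labels do not say. With it edgeR called 0 of the 9 genes, with or without the fold (adjusted p = 0.0525 to 0.0802 for the 5 genes). At an unadjusted p below 0.05 there were 5 of the 9 and 6272 of all 15543 genes. In this fit edgeR called 5 of the other matrix regulators in place of 8, and 2740 of all genes in place of 5335. With the hair shaft covariate the counts were 0 of the 9 genes (0 with a fold above 2), 0 other Hedgehog genes (2 unadjusted), 0 other matrix regulators and 32 of all genes (2252 unadjusted). For *Zfp36*ΔARE replicate 1 alone against WT they were 0, 0, 0 (3 Hedgehog and 2 matrix genes unadjusted) and 0. With a term for Y-linked counts, added after the data were seen, they were also 0, 0, 0 (2 Hedgehog and 5 matrix genes unadjusted) and 0. Without WT replicates 1 and 3 they were 5 of the 9 (1 with a fold above 2), 2 other Hedgehog genes, 7 matrix regulators and 2504 of all genes. With 1 library left out, calls ranged from 2 to 5 of the 9 genes, with or without the fold, from 5 to 7 other Hedgehog genes, from 6 to 9 matrix regulators and from 3333 to 5349 of all genes, and the lowest count of all genes came without *Zfp36*ΔARE replicate 2. DESeq2 called 9 other Hedgehog and 10 matrix genes, and 6431 (41.4%) of all genes.

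Among the genes refitted one by one (the 9 genes, other Hedgehog genes, and passing genes of the target, matrix and Lef1 lists), signs changed in genes that had not passed. For *Zfp36*ΔARE replicate 1 alone, log2 fold changes became -0.02 for *Shh*, 0.12 for *Gli2*, -0.16 for *Hhat*, -1.12 for *Scube1*, -0.51 for *Scube3*, 0.24 for *Gas1* and -0.60 for *Hhip*. With the Y-linked term, which sets that same replicate against WT, the log2 fold changes were the same, but -0.61 for *Hhip*. With the hair shaft covariate they became -0.05 for *Hhat*, -0.06 for *Kif7* and 0.14 for *Evc*, and 0 of 7 inner root sheath, 5 of 13 hair shaft, 11 of 15 matrix and 4 of 7 Hedgehog target genes then lay above 0, in place of 7, 13, 14 and 6. *Evc* was 0.04 without WT replicates 1 and 3. With 1 library left out the ranges that crossed 0 were -0.15 to 0.07 for *Gli1* (positive without WT replicate 1), -0.11 to 0.03 for *Gpr161* (positive without WT replicate 2), -0.02 to 0.32 for *Scube3* (negative without *Zfp36*ΔARE replicate 2), and -0.01 to 0.45 for *Scube1* and -0.01 to 0.48 for *Hhip* (both negative without *Zfp36*ΔARE replicate 5). The cause of these changes was not tested. *Shh* had the fewest raw counts of the 9 genes, 120 to 375 per library.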

Other observations

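The dermal papilla, the mesenchymal cluster that the matrix surrounds, was read from 13 marker genes, of which 12 could be tested and *Sox2* was too low. *Corin*, which modifies coat color from the papilla, rose by 1.08 on the log2 scale (SE 0.30, adjusted p = 0.0216 from edgeR), *Rspo3* by 0.65 (adjusted p = 0.0324) and *Bmp4* by 0.61 (adjusted p = 0.0265). *Ndp* fell by 1.44 (SE 0.22, adjusted p = 0.00447) and *Alpl* by 0.46 (adjusted p = 0.0268), and 7 genes did not pass. Over all tested genes 34.3% passed in either direction. The summed counts of the list overlapped, 2257 to 3648 in WT and 2815 to 4395 in *Zfp36*ΔARE libraries.

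All 7 melanocyte markers rose, 6 of them by more than 2-fold, with a median log2 fold change of 1.37, against 15.3% of all tested genes as higher. The groups did not overlap for 4 of the 7, against 11.2% of all tested genes. Without *Zfp36*ΔARE replicate 2 (21.3% of all genes called) edgeR called 3 of the 7, and without WT replicates 1 and 3 (15.9%) it called 4. With the hair shaft score as a covariate (0.206%) it called 0, with 0 at an unadjusted p below 0.05. *Tyr*, the rate-limiting enzyme of melanin synthesis, had 209.9 to 911 normalized counts in WT and 921.3 to 1947 in *Zfp36*ΔARE libraries (log2 1.37, SE 0.36, adjusted p = 0.0190 from edgeR). The summed counts of the 7 were 3946 to 13110 in WT and 12980 to 23900 in *Zfp36*ΔARE libraries, with the lowest score in WT replicate 3, as for 8 of the 9 genes above.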
